A study of Mus musculus with 2 samples.

Results

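The cells described here are colonic lamina propria cells selected on 3 genes of mature dendritic cells, Ccr7, Fscn1 and Ccl22. A cell was selected if it had 200 to 6000 detected genes, at most 15% mitochondrial UMIs, at least 5 UMIs of the 3 genes together with at least 2 of them detected, at least 10 UMIs of the MHC class II gene H2-Aa, and no UMI of the T cell gene Cd3e or the B cell gene Cd79a. A UMI marks 1 captured RNA molecule. The rule found 81 of 2597 cells in the WT library and 287 of 2514 cells in the KO library, 368 of 5111 in all. Single-cell RNA sequencing had been done on cd11b+ cells of the gut of wild-type mice and of LncRNA17Rik knockout mice, which lack the long noncoding RNA that the study calls lncLy6c. Per the study's methods that germline deletion was made by CRISPR/Cas9 on a C57BL/6J background. The legend of its single-cell figure gives the colons as those of male mice 8 weeks old. Cells of several mice were pooled, so that each genotype is 1 library and differences between WT and KO carry no replicate check. The WT sample is titled WTGFC, letters that no source used here explains. The study's methods state that all mice were kept specific-pathogen-free, with environment and husbandry strictly controlled. A difference between the groups of mice beyond genotype (housing or microbiota) cannot be told apart from genotype in any KO to WT value below. No feature of the count tables is named after the deleted RNA, so the genotype labels were not checked on it.

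Conventional dendritic cells take up antigen in tissues and carry it to lymph nodes. On maturation they lose uptake receptors and gain the chemokine receptor CCR7, which guides them into lymph vessels, the actin-bundling protein fascin (Fscn1), chemokines that attract T cells such as CCL22 and CCL17, costimulatory ligands and surface MHC. In the gut this state arises from both the cDC1 lineage, which cross-presents antigen, and the cDC2 lineage, which primes CD4+ T cells. CCR7 is also borne by T and B cells, which is why Cd3e and Cd79a were barred.

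The 2 libraries differed in depth in these cells. The 81 WT cells had a median of 10166 UMIs and 2596 genes and held 895699 UMIs together, and the 287 KO cells had a median of 16730 UMIs and 3110 genes and held 5161940. Over all cells that passed the filter the medians were 5073 and 6564 UMIs. Levels below are therefore UMIs summed over the cells of a library and divided by the sum's total, in counts per 1000000 UMIs (CPM). Some shares of cells are also given after thinning, the random removal of UMIs to 1 fixed number a cell. Intervals are 95% intervals for counting error only, and cells of 1 library vary more than that. Exactly 1 barcode occurred in both libraries, and it belonged to no selected cell.

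Of the 3 selecting genes, Ccr7 was detected in every selected cell, so the choice rested mainly on Ccr7 with Ccl22. The sum of the 3 ranged from 6 to 254 UMIs in WT with a median of 24, and from 5 to 520 in KO with a median of 20. Fscn1 had a UMI in 23 of 81 WT cells (28.4%) and in 56 of 287 KO cells (19.5%), and Ccr7 with Ccl22 but no Fscn1 was found in 58 WT cells (71.6%) and 231 KO cells (80.5%). Just outside the threshold, with a sum of 4, lay 3 WT and 13 KO cells, in which Cd209a, a lectin of cDC2, stood at 863 and 530.4 CPM. Just inside, 2 WT cells had a sum of 6 and 7 KO cells a sum of 5, with Cd209a at 417 and 736 CPM. Cacnb3 had no UMI in these cells on either side in WT or KO. Il4i1 stood at 118 CPM outside and 0 inside in WT, and at 0 and 8.08 CPM in KO. Socs2 was at 0 outside and 78.2 CPM inside in WT, and at 0 on both sides in KO. With so few cells, neither likeness nor difference across the threshold is read from these markers.

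The label of mature Ccr7 dendritic cells was checked on the 3 markers that the selection did not read: Il4i1, a secreted amino acid oxidase that restrains T cells, Cacnb3, a subunit of voltage-gated calcium channels, and Socs2, an inhibitor of cytokine signalling. None of the 3 was detected in 43 of 81 WT cells (53.1%) or in 152 of 287 KO cells (53.0%), while all 3 were detected in 11 WT and 33 KO cells. The 3 markers gathered in cells with Fscn1. Among selected cells with at least 2 Fscn1 UMIs, 13 of 16 in WT (81.3%) and 34 of 42 in KO (81.0%) had at least 2 of the 3, against 2 of 58 (3.45%) and 18 of 231 (7.79%) of those with no Fscn1 UMI. The first set is called Fscn1-high below and the second Fscn1-negative; another 7 WT and 14 KO cells had exactly 1 Fscn1 UMI. This split was chosen after the values were seen. The depth of its sides was alike within a library, with a median of 9525 UMIs in Fscn1-high and 10199 in Fscn1-negative WT cells, and of 16955 and 16730 in KO cells.

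Detection of each marker showed the same division. Il4i1 had a UMI in 87.5% of Fscn1-high WT cells and 88.1% of Fscn1-high KO cells, and in 24.1% and 33.3% of Fscn1-negative cells. For Cacnb3 the shares were 68.8% and 76.2% against 3.45% and 3.90%, and for Socs2 they were 81.3% and 76.2% against 3.45% and 12.6%. In a gate of cDC2 outside the selection, Il4i1 was found in 9.19% and 11.7% of cells, Cacnb3 in 0.541% and 0.587% and Socs2 in 2.70% and 5.57%, at median depths of 10296 and 13547 UMIs. On all 3 markers Fscn1-negative cells thus stood nearer to cDC2 than to Fscn1-high cells. With each cell thinned to 2000 UMIs, Cacnb3 was left in 5 of 16 and 15 of 42 Fscn1-high cells. In Fscn1-negative cells it was left in 0 of 58 and 0 of 231. Il4i1 was left in 9 of 16 and 20 of 42 against 6 of 58 and 30 of 231. Socs2 was left in 9 of 16 and 10 of 42 against 0 of 58 and 9 of 231. In neutrophils (at least 20 UMIs of S100a8 and S100a9, under 10 of H2-Aa), which should lack these genes, the highest share of any of the 3 was 3.92%, at median depths of 2260 and 3038 UMIs. The label therefore held for the Fscn1-high minority. Fscn1-negative cells carried Ccr7 and Ccl22, which the rule required of any cell without Fscn1, with little else of the marker set. The cells with exactly 1 Fscn1 UMI were left out of this comparison. The whole set is for that reason called the selected cells.

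**Figure D1:**
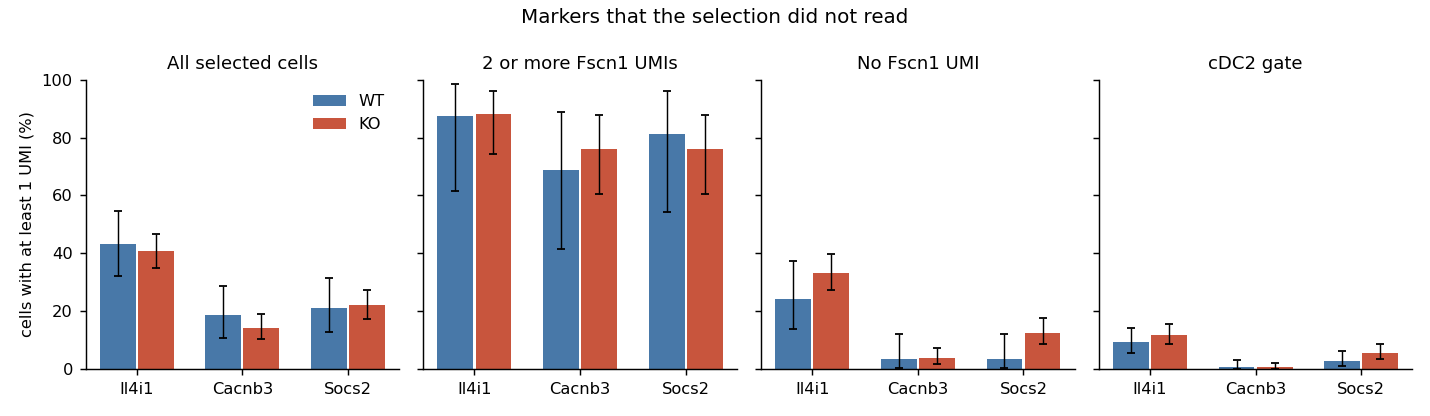
Share of cells, in percent, with at least 1 UMI of Il4i1, Cacnb3 or Socs2 in all selected cells, those with 2 or more Fscn1 UMIs, those with none and the cDC2 gate, as bars for the WT and KO libraries with 95% Clopper-Pearson intervals. Each of the 3 markers, taken singly, is found in 68.8% to 88.1% of Fscn1-high cells and in at most 33.3% of Fscn1-negative cells.

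The gates used for comparison were fixed with the same H2-Aa, Cd3e and Cd79a limits. The cDC1 gate required at least 3 UMIs of the cDC1 genes Xcr1 and Clec9a, the cDC2 gate at least 3 of Cd209a, Mgl2, Plet1 and Dpp4 with none of the cDC1 genes, and both allowed at most 5 UMIs of the complement genes C1qa, C1qb and C1qc, which mark macrophages. They held 31 and 185 cells in WT and 71 and 341 in KO, selected cells left out. The cells were labelled as sorted for cd11b, a surface protein, while only RNA of its gene Itgam was measured here. Which cells bore the protein cannot be read from that RNA. Itgam stood at 129 and 128 CPM in the selected WT and KO cells and at 41.5 and 24.5 CPM in Fscn1-high cells, and the same libraries held 303 and 86 cells in a B cell gate.

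Selected cells made up a larger part of the KO library. They were 3.12% of WT cells (2.48% to 3.86%, Clopper-Pearson) and 11.4% of KO cells (10.2% to 12.7%) (log2 ratio 1.87, 1.51 to 2.25) or 3.66-fold. Fscn1-high cells were 0.616% and 1.67% (log2 ratio 1.44, 0.58 to 2.37), and Fscn1-negative cells 2.23% and 9.19% (log2 ratio 2.04, 1.62 to 2.48). The other dendritic cells were also a larger part of the KO library, with the cDC1 gate at 1.19% and 2.82% and the cDC2 gate at 7.12% and 13.6%. In 1 library each, more cells of a type and fewer of the others in the sort cannot be told apart.

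Among dendritic cells the difference was not kept at equal depth. Selected cells were 27.3% of the selected and gated dendritic cells in WT and 41.1% in KO (log2 ratio 0.59, 0.23 to 0.96). With every cell thinned to 3000 UMIs before the selection, which left out 885 WT and 771 KO cells, these shares were 21.3% and 21.7%, a log2 ratio of 0.03, although the share of all cells still differed, at 1.93% and 5.39% (log2 ratio 1.48). Fscn1-high cells were 5.39% and 6.01% of the dendritic cells (log2 ratio 0.16, -0.70 to 1.09). The share of dendritic cells in the selected state was thus not distinguishable between the libraries at equal depth (interval of the thinned log2 ratio -0.56 to 0.65), and neither interval shows that the shares were equal.

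**Figure D2:**
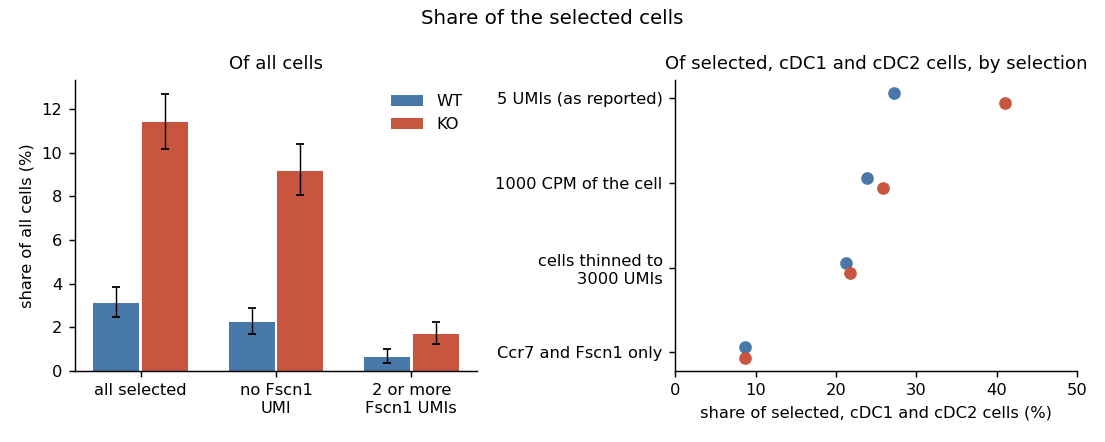
The left panel shows selected cells as percent of all cells, as bars for WT and KO with 95% Clopper-Pearson intervals (3.12% and 11.4% for all selected). The right panel shows, as 1 point a library, their percent among selected, cDC1 and cDC2 cells under 4 ways of choosing them, and the points of WT and KO close up from 27.3% and 41.1% to 21.3% and 21.7% after thinning.

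In both libraries most measured maturation genes were higher in Fscn1-high than in Fscn1-negative cells. Of 4548 genes with enough UMIs, 3.5% were at least 2-fold higher in Fscn1-high cells of both libraries and 4.09% at least 2-fold lower, with 10 CPM added to every level before the ratio was taken, as in all such counts below. Of 24 measured genes of a list of dendritic cell maturation, 18 were higher in both libraries and 0 lower, with a median log2 ratio of 2.30 in WT and 1.83 in KO against -0.08 and -0.13 over all genes. The list includes the 3 markers above and was drawn up with results of these data known. The count describes cells that were split on Fscn1, a gene of the same program, and no test was made of it. Other genes went opposite ways in the libraries, such as the chemokine gene Cxcl9, with a log2 ratio of -4.29 in WT and 1.20 in KO.

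The genes that went furthest with Fscn1, Cacnb3, Socs2 and Il4i1 among them, were named by a rule on the smaller ratio of the 2 libraries. Apol7c, an apolipoprotein L family member of dendritic cells, stood at 1701 and 1856 CPM in Fscn1-high WT and KO cells and at 80.8 and 128 CPM in Fscn1-negative cells. It was detected in 10 of 16 Fscn1-high WT cells and 27 of 42 KO cells. A single cell held 36.9% of its UMIs in Fscn1-high WT cells, and another 60.4% of those in Fscn1-negative WT cells. Fabp5, a fatty acid carrier, stood at 1144 and 1588 CPM against 56.4 and 71.9, and Cd63, a tetraspanin of late endosomes, at 919 and 835 CPM against 93.05 and 58.5. Of the Fabp5 UMIs of Fscn1-high WT cells, 41.45% lay in 1 cell, though 14 of the 16 cells had a UMI. Cd200, a ligand that restrains myeloid cells, was at 362 and 169 CPM against 7.63 and 5.52. Lad1, Anxa3, Tspan3, Serpinb6b and Tmem123 were named by the same rule, each with at least a 2-fold higher level in both libraries. Relb, the partner of noncanonical NF-kB, was at 456 and 296 CPM against 85.4 and 101 CPM, which is also higher on both sides.

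Most measured uptake receptors and cDC2 genes were lower in Fscn1-high cells. Over all genes 4.09% were at least 2-fold lower and 3.5% higher in both libraries. Of 15 measured uptake genes 11 were at least 2-fold lower in both libraries and 0 higher, and of 11 measured cDC2 genes 8 were lower and 0 higher, with median log2 ratios of -1.93 and -1.92. Cd209a stood at 29.6 and 70.9 CPM in Fscn1-high cells and at 355 and 496 CPM in Fscn1-negative cells. Mgl2, another lectin, was at 41.5 and 96.8 CPM against 192 and 574 CPM, and Clec10a, a galactose lectin, at 0 and 23.2 CPM against 149 and 159 CPM. Fcgr2b, the inhibitory Fc receptor, had no UMI in Fscn1-high WT cells and stood at 9.54 CPM in KO, against 105 and 87.8 CPM. MHC class II genes showed a smaller shift, with 2 of 10 lower, H2-DMa and H2-DMb1, the peptide-loading chaperones.

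Lineage was read from 6 cDC1 genes (Xcr1, Clec9a, Cadm1, Naaa, Snx22, Tlr3) and 6 cDC2 genes (Sirpa, Itgam, Cd209a, Mgl2, Clec10a, Clec4a2), a cell counting for a lineage with at least 1 UMI. As deposited, 50.6% of selected WT cells and 37.3% of KO cells had cDC2 genes only, 38.3% and 57.1% had both, 4.94% and 2.79% had cDC1 genes only and 6.17% and 2.79% had neither. After thinning to 2000 UMIs, with no cell left out, cDC2 genes only was found in 49.4% of WT and 60.6% of KO cells, and neither in 30.9% and 22.7%. Thinned to 3000 UMIs before the selection, which chose other cells, the shares were 66.7% and 52.1%. The order of the libraries turned under the first thinning and not under the second. No difference in lineage is therefore read from these shares. As deposited, 55.6% of WT and 80.1% of KO selected cells had at least 3 UMIs of Cd209a, Mgl2, Plet1 and Dpp4. That is the minimum of the cDC2 gate, and as depth differed, no difference in lineage is read from it either. In neutrophils, where Itgam and Sirpa are known to be expressed, 76.5% of WT and 74.4% of KO cells also had cDC2 genes only. Among Fscn1-high cells neither lineage was detected in 68.8% and 59.5% after thinning.

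Few genes differed by 2-fold between the selected cells and both dendritic gates. Of 6039 genes, 0.464% were at least 2-fold higher than in both gates of both libraries and 0.0166%, 1 gene, lower. Cacnb3 and Socs2 stood at 60.3 and 80.4 CPM in selected WT cells, against 0.489 and 3.42 CPM in the WT cDC2 gate. Fabp5 was at 309 and 285 CPM in selected WT and KO cells against 50.8 and 34.6 CPM in cDC2. Ccl17, a ligand of the chemokine receptor CCR4, was at 157 and 1118 CPM against 17.6 and 178 CPM. Ankrd33b, an ankyrin repeat protein, was at 44.7 and 68.2 CPM against 7.82 and 11.4 CPM. In Fscn1-negative cells alone, these genes other than Ccl17 lay below their level in the whole selected set. Cacnb3 was there at 3.05 and 4.80 CPM, Socs2 at 6.10 and 16.3, Fabp5 at 56.4 and 71.9 and Ankrd33b at 10.7 and 42.7. In WT, Fabp5 and Ankrd33b thus stood near their levels in cDC2. Ccl17 was at 175 and 1039 CPM in Fscn1-negative cells. The single lower gene was Zfp36l2, an RNA-binding protein that promotes mRNA decay, at 205 and 122 CPM against 551 and 347 CPM in cDC2. C1qa, C1qb, C1qc and Apoe were also higher, but the gates bar cells rich in C1q, and 8 WT and 16 KO selected cells had at least 20 C1q UMIs.

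**Figure D3:**
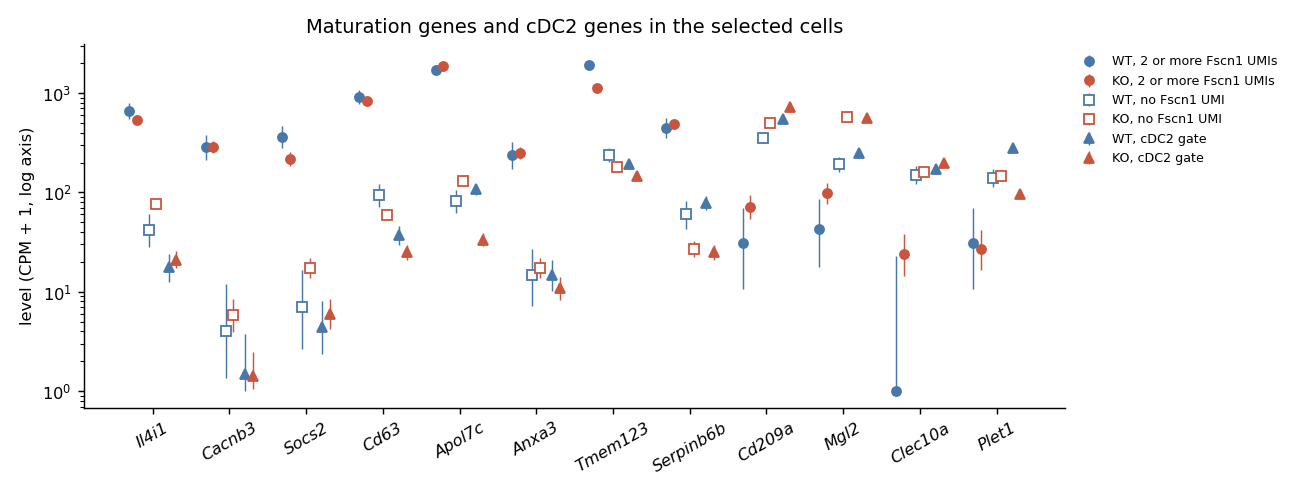
Levels of 8 maturation genes and 4 cDC2 genes, as CPM plus 1 on a log axis, in Fscn1-high cells (circles), Fscn1-negative cells (open squares) and the cDC2 gate (triangles) of each library, with 95% counting intervals. Apol7c stands at 1701 and 1856 CPM in the circles, and Cd209a lies lower in the circles (29.6 and 70.9 CPM) than in the squares.

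Between KO and WT, 66 of 8935 genes (0.739%) were at least 2-fold higher and 162 (1.81%) at least 2-fold lower in the selected KO cells. Over all genes the median log2 ratio was -0.12, and measured from that median the split was 93 higher and 96 lower. Of 9 measured chemokines 5 were higher, Ccl3, Ccl4, Ccl5, Ccl17 and Cxcl10, and 1, Cxcl9, was lower, with a median of 1.25. The maturation list, which leaves out the selecting genes, had 0 of 30 higher and 0 lower, with a median of -0.31, and Il4i1, Cacnb3 and Socs2 differed by less than 2-fold. At the shares over all genes under 1 of 30 would be called, so nothing particular to the list is read from the 0. Fscn1 itself, a selecting gene given as a description, was among the lower genes, at 399.7 and 184 CPM (log2 ratio -1.12).

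Ccl17, made by dendritic cells to attract CCR4-bearing T cells, stood at 157 CPM in WT cells against 1118 CPM in KO cells (log2 ratio 2.83, 2.59 to 3.08). It had a UMI in 29 of 81 WT cells, with a highest count of 19, and in 164 of 287 KO cells, with a highest count of 405. Ccl17 in the cDC1 and cDC2 gates was 17.4 and 17.6 CPM in WT and 245 and 178 CPM in KO, so the difference was not limited to selected cells. In Fscn1-high cells it was 154 and 1950 CPM, with a median of 0 UMIs in the 16 WT cells and 9.5 in the 42 KO cells. No single cell made up more than 19.5% of that KO sum.

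Ccl5, Ccl4 and Ccl3, inflammatory chemokines, were also higher in KO. Ccl5 stood at 103 and 590.3 CPM in selected WT and KO cells (log2 ratio 2.52, 2.22 to 2.84), and at 219 and 2125 CPM in Fscn1-high cells. In the cDC2 gate Ccl5 was also higher in KO, at 19.1 and 138 CPM. The cDC1 gate held only 4 and 6 UMIs of it, at 7.71 and 3.57 CPM. Ccl4 was at 83.7 and 1012 CPM (log2 ratio 3.60, 3.27 to 3.94), with 46.7% of the WT UMIs in 1 cell. It was also higher in KO in the cDC1 gate, at 36.6 and 166 CPM, and in the cDC2 gate, at 186 and 503.5 CPM. Ccl3 stood at 54.7 and 218 CPM (log2 ratio 2.00, 1.58 to 2.44). In Fscn1-high KO cells 35.9% of the Ccl4 UMIs came from 1 cell. Ccl22, a selecting gene given here as a description, was at 978 and 1312 CPM in selected cells and at 3427 and 5492 CPM in Fscn1-high cells. Ccr7, also a selecting gene, was at 2329 and 1194 CPM and, within Fscn1-high cells, at 4909 and 2778 CPM, both under 2-fold.

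Cxcl9 and Cxcl10, neighbouring genes whose products bind CXCR3 on T cells, went apart. Cxcl10 was at 136 CPM in WT cells against 338 CPM in KO cells (log2 ratio 1.31, 1.05 to 1.59). Cxcl9 was at 602 and 70.5 CPM (log2 ratio -3.09, -3.29 to -2.90), and 29.1% of its WT UMIs came from 1 cell. In Fscn1-high cells Cxcl9 stood at 29.6 and 142 CPM, the other order, and there 63.5% of the KO UMIs came from 1 cell. In the cDC2 gate Cxcl9 was at 134 and 28.2 CPM, lower in KO as in the selected cells.

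Promoters of some of the genes described here are shown next to their values, 3 higher and 3 lower in KO. The windows are the 250 bases before the start in RefSeq on GRCm38.p6, 5′ to 3′ on the gene's strand, in lower case with motif matches in capitals. The motifs were NF-kB, spelled GGGA, any 2 bases and TTCC (reverse GGAA, any 2 bases and TCCC), the palindromic GAS element (gamma-activated site), spelled TTC, any 3 bases and GAA, and the ISRE of interferon factors, spelled GAAA, any 2 bases and GAAA (reverse TTTC, any 2 bases and TTTC). Both strands were searched, with 50 bases after the start included. They occur in 1.43%, 8.47% and 3.49% of 27025 promoters of that length.
Ccl17: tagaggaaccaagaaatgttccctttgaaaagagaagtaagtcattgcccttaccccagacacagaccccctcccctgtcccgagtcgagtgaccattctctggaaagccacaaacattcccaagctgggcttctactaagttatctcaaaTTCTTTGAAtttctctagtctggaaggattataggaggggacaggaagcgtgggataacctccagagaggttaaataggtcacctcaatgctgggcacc
Cxcl10: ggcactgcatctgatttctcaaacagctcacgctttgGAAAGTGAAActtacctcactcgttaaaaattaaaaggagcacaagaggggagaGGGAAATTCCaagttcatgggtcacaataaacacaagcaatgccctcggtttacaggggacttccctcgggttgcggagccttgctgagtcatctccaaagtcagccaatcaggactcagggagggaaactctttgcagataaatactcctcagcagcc
Cxcl9: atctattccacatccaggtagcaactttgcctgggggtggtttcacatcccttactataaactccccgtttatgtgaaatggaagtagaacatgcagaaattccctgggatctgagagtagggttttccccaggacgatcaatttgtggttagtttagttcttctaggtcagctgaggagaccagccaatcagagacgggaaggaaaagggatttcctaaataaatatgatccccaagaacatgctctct
Ifit1: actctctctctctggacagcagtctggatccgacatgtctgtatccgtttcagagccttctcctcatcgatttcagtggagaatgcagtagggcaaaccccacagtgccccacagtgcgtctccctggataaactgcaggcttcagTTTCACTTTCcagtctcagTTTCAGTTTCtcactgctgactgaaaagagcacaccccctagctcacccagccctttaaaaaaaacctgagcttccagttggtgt
Gbp2: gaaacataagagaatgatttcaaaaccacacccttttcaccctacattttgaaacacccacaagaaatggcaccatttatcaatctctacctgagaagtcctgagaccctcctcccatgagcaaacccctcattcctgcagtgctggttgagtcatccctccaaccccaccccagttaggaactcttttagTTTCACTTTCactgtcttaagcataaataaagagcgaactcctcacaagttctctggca
B2m: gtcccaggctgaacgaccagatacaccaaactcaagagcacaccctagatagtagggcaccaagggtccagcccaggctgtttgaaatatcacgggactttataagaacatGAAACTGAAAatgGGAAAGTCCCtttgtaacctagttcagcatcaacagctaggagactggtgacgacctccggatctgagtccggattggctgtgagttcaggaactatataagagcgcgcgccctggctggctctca
The windows lie at chr8:94810203-94810452 on the plus strand for Ccl17, chr5:92348890-92349139 and chr5:92328080-92328329 on the minus strand for Cxcl10 and Cxcl9, and on the plus strand at chr19:34640639-34640888 for Ifit1, chr3:142620413-142620662 for Gbp2 and chr2:122147437-122147686 for B2m. Ccl17 holds 1 GAS, Cxcl10 1 ISRE and 1 NF-kB match, Ifit1 2 ISRE matches, B2m 1 ISRE and 1 NF-kB match, and Gbp2 1 ISRE match with an NF-kB match that begins 7 bases after the start and is not printed. Cxcl9 holds no match, which says only that these letters are not in this window. ISRE matches stand before Ifit1, which was higher in KO, and before Gbp2 and B2m, which were lower. The genes searched were chosen after their values were seen. Irf1 and Irf8, both lower in KO, hold 1 and 2 GAS matches. The entries of Ccl3, Il12b, Aldh1a2, Cd80, Irf7, Tap1 and Runx3 had no match. The marker set and genes named with Fscn1 were searched too, and Apol7c held 2 overlapping ISRE matches. The entries of Fscn1, Ccl22, Il4i1, Cacnb3, Cd63, Lad1, Cd200, Tspan3, Serpinb6b and Tmem123 had no match. Ccl4 and Ccl5 were among the genes without an entry.

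Of 10 measured cytokines 4 were at least 2-fold higher in KO, Il6, Il12b, Il23a and Ifnb1, and 0 lower, with a median of 0.67, against 0.739% and 1.81% of all genes. Il12b, the shared subunit of IL-12 and IL-23, stood at 53.6 and 256 CPM in selected cells (log2 ratio 2.25, 1.84 to 2.70), and at 237 and 605 CPM in Fscn1-high cells (1.35, 0.88 to 1.86). A single WT cell held 41.7% of the Il12b UMIs of selected WT cells. Outside the selection Il12b was also higher in KO, at 7.71 and 155.5 CPM in the cDC1 gate and 3.42 and 11.4 CPM in the cDC2 gate. Il23a, the other IL-23 subunit, was at 23.4 and 62.8 CPM, and Il6, an inflammatory cytokine, at 32.4 and 90.1 CPM, though without the H2-Aa minimum its log2 ratio was -0.08. Ifnb1 rested on 2 WT UMIs and 108 KO UMIs. The level of Il1b, which primes T helper cells, was 1767 and 1355 CPM, and Tnf, another such cytokine, was at 204 and 129 CPM, both under 2-fold.

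Costimulation and regulation differed in single members. Of 10 costimulatory genes 1 was higher, Tnfsf4 (OX40 ligand), at 4.47 and 19.9 CPM, and 1 lower, Cd200, at 78.2 and 29.4 CPM. Cd80, a ligand of CD28, was at 91.5 and 185 CPM, and Cd86, the other CD28 ligand, at 189 and 235 CPM, both below 2-fold on the scale with 10 CPM added. Cd40, the receptor through which T cells license dendritic cells, was at 275 and 238 CPM. Of 14 regulatory genes Aldh1a2, the enzyme that makes retinoic acid, was higher, at 10.1 and 43.4 CPM (log2 ratio 2.11, 1.16 to 3.26), and Socs1 and Cd200 were lower. Cd274 (PD-L1) stood at 372 and 282 CPM. The NF-kB list had 0 of 19 and the survival list 0 of 9 higher or lower, counts that the shares over all genes (0.739% and 1.81%) would also give.

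The MHC lists were read next, class I for presentation to CD8+ and class II for presentation to CD4+ T cells. Of 13 class I genes 2 were at least 2-fold lower, B2m, the light chain, and Tap1, the peptide transporter, and the median was -0.65. Over all genes 1.81% were lower and 0.739% higher, with a median of -0.12. B2m was at 3422 and 1595 CPM (log2 ratio -1.10, -1.16 to -1.04), with a median of 32 UMIs a cell in WT and 25 in KO despite the greater depth of KO. Tap1 was at 224 and 86.4 CPM. In the cDC2 gate B2m was at 2470 and 1291 CPM and so differed alike outside the selected cells. Of 11 class II genes 0 passed 2-fold, with a median of 0.37, and Cd74, the invariant chain, was at 16593 and 25202 CPM.

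Interferon genes were read as 2 lists, and no test compared them. Over all genes 0.739% were higher and 1.81% lower, with a median of -0.12. Of 7 GTPase genes of interferon-gamma 4 were lower, Gbp2, Gbp4, Gbp7 and Irgm1, and 0 higher, with a median of -1.02. Gbp2, a guanylate-binding protein, was at 203 and 30.6 CPM (log2 ratio -2.73, -3.05 to -2.42). Outside the selection Gbp2 was also lower in KO, at 70.9 and 15.1 CPM in the cDC2 gate and 901 and 104 CPM in neutrophils. In the cDC1 gate it was at 21.2 and 10.7 CPM, on 11 and 18 UMIs. In Fscn1-negative cells the whole list summed to 453 and 77.7 CPM, and to 213 and 191 CPM in Fscn1-high cells, a contrast that was not tested. Gbp2 itself was at 119 and 85.9 CPM in Fscn1-high cells (log2 ratio -0.47, -1.21 to 0.34). Of 14 other interferon genes 2 were higher, Ifit1 and Oasl1, both antiviral, and 2 lower, Irf7 and Ifi47, with a median of -0.43. Ifi47 also encodes a GTPase induced by interferon-gamma. The whole of this list summed to 622.5 and 1679 CPM in Fscn1-high cells and to 877 and 831 CPM in Fscn1-negative cells, also not tested. Irf7 was at 23.7 and 47.7 CPM in Fscn1-high cells (log2 ratio 1.01, -0.48 to 2.96) and at 85.4 and 8.87 CPM in Fscn1-negative cells. Ifit1 was at 4.47 and 80.2 CPM (log2 ratio 4.17, 2.80 to 6.05), detected in 3 of 81 WT and 53 of 287 KO cells. In the cDC2 gate Ifit1 was also higher in KO, at 7.82 and 43.7 CPM, while the cDC1 gate held 0 and 3 UMIs of it.

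Of 25 transcription factors 3 were lower, Irf1, Irf8 and Klf4, and 0 higher, against 1.81% and 0.739% of all genes. Irf8, required for cDC1, was at 271 and 100.3 CPM (log2 ratio -1.44, -1.66 to -1.21), and Irf1, an interferon-response factor, at 132 and 53.5 CPM. Klf4, needed by part of the cDC2, was at 627 and 308 CPM. Runx3, a factor that the study examines in macrophages, was at 285 and 141 CPM in selected cells (log2 ratio -1.01, -1.22 to -0.80), and at 246 and 175 CPM in the cDC2 gate. With 10 CPM added the Runx3 difference was just under 2-fold. Irf4, which serves cDC2 migration, was at 115 and 178 CPM.

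**Figure D4:**
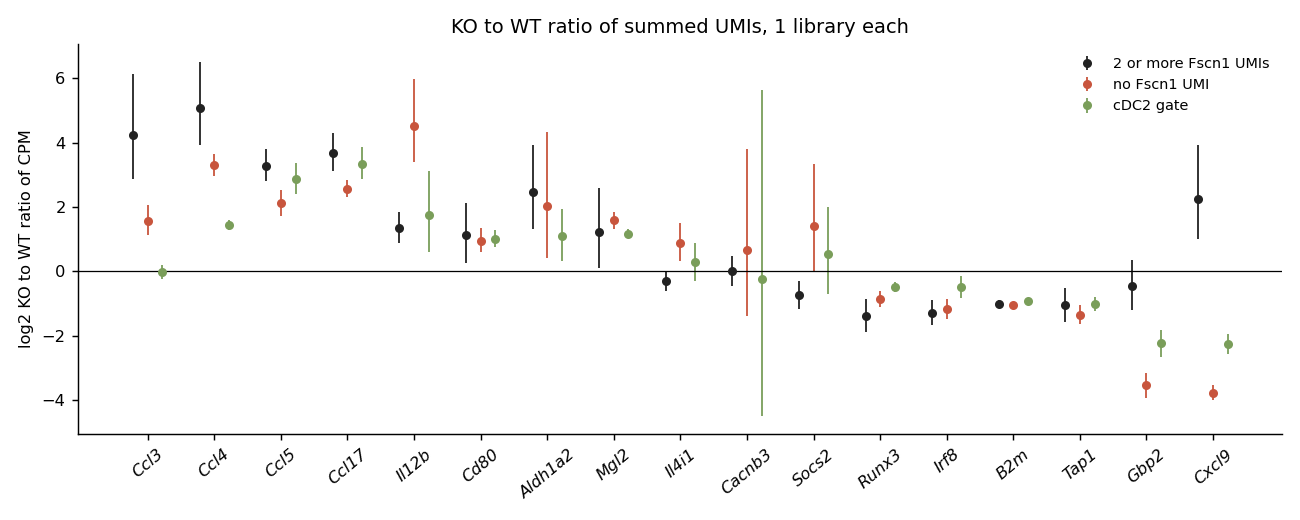
Log2 KO to WT ratios of CPM for 17 genes in Fscn1-high cells, Fscn1-negative cells and the cDC2 gate, as points with 95% intervals for counting error, with a line at equal levels. The 3 sets lie on the same side for Ccl17 and B2m, while Cxcl9 is above the line in Fscn1-high cells (2.26) and below it in Fscn1-negative cells (-3.77).

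Within Fscn1-high cells, where 16 WT and 42 KO cells held 168683 and 733746 UMIs, 272 of 4285 genes (6.35%) were at least 2-fold higher and 439 (10.2%) lower in KO. Of 9 chemokines 7 were higher and 0 lower, Ccl2 and Cxcl9 with the 5 above, with a median of 2.45. Of 9 cytokines 5 were higher, Il12b, Il23a, Ebi3, Tnf and Ifnb1. Of 10 costimulatory genes 4 were higher, Cd80, Cd70, Tnfsf4 and Tnfsf9, and Cd200 was lower. Cd70, the ligand of CD27, stood at 11.9 and 66.8 CPM, Cd80 at 71.1 and 154 CPM, and Aldh1a2 at 35.6 and 196 CPM. The WT level of Cd70 rests on 2 of 16 cells with 1 UMI each. Of the WT Aldh1a2 UMIs, 50% came from 1 cell. Ifit1 had no UMI in the 16 WT cells, where a count of 0 allows up to 17.8 CPM. It stood at 187 CPM in KO, 10.5-fold above those 17.8 CPM. The lower limit of its log2 ratio, which also covers the KO counting error, was 3.07, and 34.3% of the KO UMIs came from 1 cell.

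Of 29 measured maturation genes 1 was higher and 2 were lower in Fscn1-high KO cells, near the shares over all genes (6.35% and 10.2%), with a median of -0.22 against -0.17 over all genes, and nothing particular to the list is read from this. Cacnb3 was at 285 and 285 CPM (log2 ratio 0.00, -0.46 to 0.49), Il4i1 at 664 and 534 CPM (-0.31, -0.62 to 0.00) and Socs2 at 362 and 215 CPM (-0.75, -1.18 to -0.30). Of 10 sterol genes 5 were lower, Hmgcs1, Sqle, Cyp51, Mylip and Apoe. Apoe is also on the macrophage list, which summed to 1541 and 581 CPM in the same cells with Fcgr1 at 0 in WT and Mertk at 0 in KO, and its part in the sterol genes was not tested. Vcam1, an adhesion ligand, was at 219 and 23.2 CPM. B2m was at 4932 and 2434 CPM and Runx3 at 326 and 125 CPM, so both were lower in KO in Fscn1-high cells too.

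Some of the largest ratios between the libraries belonged to genes that mark other cells, and their part in the other results was not tested. The plasma cell list summed to 2005 CPM in selected WT cells and 95.3 in KO, with 4 of 5 measured genes lower in KO. Of all genes 1.81% were lower. Igkc, an immunoglobulin light chain, was at 1101 and 12.4 CPM, 53.0% of the WT UMIs lay in 1 cell, and neutrophils of the same libraries had it at 1017 and 22.8 CPM. Mptx1, a pentraxin of the gut epithelium, was at 2.23 and 118 CPM, with 90.9% of the KO UMIs in 1 cell. S100a9, a neutrophil gene, was at 2.23 and 101 CPM, and without the 2 KO cells that held at least 20 UMIs of S100a8 and S100a9 its log2 ratio, with 10 CPM added, was 0.82 in place of 3.18. The macrophage list summed to 1841 and 1293 CPM, the T cell list to 8.93 and 8.14 and the B cell list to 13.4 and 5.04. The epithelium list summed to 106 and 79.8 CPM, with at least 2 UMIs in 25 of 81 WT cells (30.9%) and 67 of 287 KO cells (23.3%). The list of natural killer and innate lymphoid cells summed to 136 and 164 CPM, with Ncr1 at 0 in both. The eosinophil list was at 10.1 and 5.42 CPM with the granule genes Epx and Prg2 at 0 in both.

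The remaining genes chosen by rank between the libraries were Mmp12 and Il22ra2 among the higher and Ly6a, Ly6i, Ly6c2, C3, Mmp14, Igha and Jchain among the lower. Ly6a, a surface antigen induced by interferon, was at 292 and 15.9 CPM, and in the cDC2 gate at 195 and 11.6 CPM. Mmp12, a macrophage elastase, was at 22.3 and 129 CPM, and Il22ra2, the decoy receptor of IL-22, at 4.47 and 48.4 CPM. In the cDC2 gate Mmp12 was also higher in KO, at 21.02 and 58.8 CPM, but Il22ra2 was lower, at 61.1 and 21.95 CPM. Of these, Mmp12, Il22ra2, Ly6a, C3, Ly6c2 and Mmp14 changed direction under at least 1 other way of choosing the cells. Cycling genes were higher in 3 of 10, Mki67, Stmn1 and Tyms, against 0.739% of all genes. Mki67, a proliferation marker, had at least 2 UMIs in 23 of 81 WT cells (28.4%) and 191 of 287 KO cells (66.6%), but 17 and 140 of these had no UMI of Top2a, another cycling gene, and no cycling is read from Mki67 alone.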

How the data were processed

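Colonic cd11b+ cells of pooled WT and LncRNA17Rik knockout mice were measured with 10x Genomics 3′ libraries, 1 per genotype. The authors deposited a matrix of UMI counts per gene and barcode for each library (3185 barcodes and 22191774 UMIs in WT, 3020 and 23384895 in KO, both fewer barcodes than the cells the study counts), made with Cell Ranger 3.0.2 per the file headers. The submitters' processing notes name mm10 and Seurat 4. The deposited gene and barcode files hold identifiers and no measurement.

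Cells were filtered and selected as the report states. The cells, lists and gates were chosen with earlier results of these data known, and some list genes are not reported here and stand outside the lists' counts. No doublet caller was run, and cells with Cd3e or Cd79a were barred. Counts were summed per library and expressed as CPM. Log2 ratios carry exact conditional binomial intervals, levels no test, and shares Clopper-Pearson intervals at 95%. Genes were counted at 2-fold with 10 CPM added and at least 20 UMIs. Named genes were members of the lists, the 10 highest and 10 lowest KO to WT ratios among genes with at least 50 UMIs in at least 10 cells, and the 12 highest and lowest against the gates. The same rank rule was applied to the Fscn1 split after the values were seen. Alternatives covered the cell filter, the selection, depth, the added CPM, the gene minimum, scaling and marker-bearing cells. Python 3.11.15, numpy 2.4.6, scipy 1.17.1, pandas 2.3.3 and matplotlib 3.10.9 were used. The ratio intervals were tried on simulated counts with counting error only. Those hold no variation between cells, so the trial cannot check the intervals against it. Promoters came from RefSeq tables on GRCm38.p6.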

Additional observations from a re-analysis of the deposited data

Results flagged for a closer look

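Of 223 listed or named genes, 6 had KO to WT ratios of at least 2-fold in opposite directions in Fscn1-high and Fscn1-negative selected cells. The differences were not tested, since each genotype is 1 library, and the ratios have 10 CPM added. Cxcl9, a CXCR3 ligand, had a log2 ratio of 1.94 in Fscn1-high and -3.55 in Fscn1-negative cells, with 63.5% of the Fscn1-high KO UMIs in 1 cell. The heat-shock genes Hspa1a and Hspa1b had ratios of 2.93 and 3.66 in Fscn1-high cells and -1.07 and -1.13 in Fscn1-negative cells. Tnf had 2.34 and -1.015, Ifit2, an antiviral gene, 2.385 and -1.15, and Irgm1, a GTPase of interferon-gamma, 1.28 and -1.65. Ifit2 had no UMI in Fscn1-high WT cells.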

How the results depend on the processing

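No paired analysis was possible because each genotype is 1 library. The log2 ratio of the share of selected cells, 1.87, was 1.33 with 1000 CPM in place of 5 UMIs, 1.305 on Ccr7 and Fscn1 alone, 1.48 with cells thinned to 3000 UMIs and 1.44 for Fscn1-high cells. Among dendritic cells it went from 0.59 to 0.12, 0.0070 and 0.028 under the first 3 of these. Cells with cDC2 genes only were 54.3%, 65.2% and 66.7% of WT under the same 3, in that order, and 45.3%, 56.4% and 52.1% of KO. The count of 2-fold genes between KO and WT, 228, was 692 on Ccr7 and Fscn1 alone, 1099 with 1 CPM added (443 higher, 656 lower), 392 without cells holding 2 or more UMIs of another type, 364 among cells with cDC2 genes only, 711 in Fscn1-high cells and 363 with selected cells thinned. That against the gates, 29, was 50 with 1 CPM added. The cause was not tested.

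Of 700 values for the 35 named genes past 2-fold over 20 alternatives, 681 kept their direction. The others were Mmp12 at -0.022 with 3 UMIs, C3 at 0.78 on Ccr7 and Fscn1 alone, Il6 at -0.083 without the H2-Aa minimum, and Il22ra2 at -0.29 without cells of another type. Ly6c2 was at 0.77 thinned, 0.30 without cells of another type, 0.13 among cells with cDC2 genes only and 0.11 without C1q-rich cells. In Fscn1-high cells Ly6a was at 1.54, Cxcl9 at 1.94, C3 at 0.75 and Irf7 at 0.78. In the 4 WT and 8 KO cells with cDC1 genes only, Mmp12 was at -1.77, Cxcl9 at 0.67, Ly6c2 at 0.67, Mmp14 at 1.13, Tnfsf4 at -1.77, Irf1 at 2.79 and Irf7 at 3.68. The alternatives on Fscn1, C1q, S100 and thinned selected cells were chosen after seeing the data. Depth limits the values in Fscn1-high WT cells, where 3 counts are 17.8 CPM.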

Other observations

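Further lists were read across the Fscn1 split, with 3.5% of all genes higher and 4.09% lower in both libraries as the background. Of 9 measured chemokines, the selecting gene Ccl22 left out, 1, Ccl5, was at least 2-fold higher in Fscn1-high than in Fscn1-negative cells of both libraries, with the median of the list at -1.14 in WT and 0.21 in KO. Among survival genes Bcl2l1, which blocks apoptosis, and Fas, a death receptor, were higher in Fscn1-high cells of both libraries, 2 of 7 measured, and 0 were lower. Of 13 MHC class I genes Psme2, a proteasome activator, and Nlrc5, the class I transactivator, were higher. Among 24 transcription factors 2, Irf8 and Id2, were higher and 2, Batf and Runx1, lower, and nothing particular to these lists is read from such counts.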
